A study of Mus musculus with 10 samples.

Results

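The genes described here encode the machinery of fatty acid oxidation and ketone body metabolism in cultured mouse small cell lung cancer cells. They are 41 genes chosen by symbol: the carnitine acyltransferases, the long-chain acyl-CoA synthetases, the acyl-CoA dehydrogenases and an oxidase, the enzymes of the later steps of β-oxidation, a pair of acyl-CoA thioesterases, 3 ketone body enzymes and the nuclear receptors Ppara and Ppard. All 41 were among the 26335 rows of the deposited table. Of the 41 genes, 24 were counted as mitochondrial and 6 as peroxisomal, and 2 encode enzymes found in both compartments. The other 9 were counted apart, though Acsl5 among them is also found on mitochondria. The table holds log2 CPM, the logarithm of CPM, that is, gene reads relative to the size of the library. In 38 of the 41 genes the mean over the 10 libraries was above 0 on that scale, and only these entered the test across genes.

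The libraries came from mSCLC-2405 cells, a line established from a primary lung tumor of a mouse with conditional gene deletions, which were induced by a Cre adenovirus given through the trachea. Control cells received DMSO and treated cells received stiripentol, an antiseizure medication, both for 48 h in RPMI medium with serum, and there were 5 libraries of each. The labels give no dose. All libraries are of 1 line. The study's statistics section says, for all its experiments together, that n counts independent samples from individual mice, and neither it nor the labels say whether the 5 libraries of a group came from separate cultures of this line. The p-values therefore measure the spread between these libraries, which may be technical.

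In β-oxidation, a fatty acid is first joined to coenzyme A, carried into the mitochondrion as a carnitine ester, and then shortened from its carboxyl end in a cycle of dehydrogenation, hydration, a further dehydrogenation and thiolysis. Electrons taken off by the acyl-CoA dehydrogenases reach the respiratory chain through the electron transfer flavoprotein and ubiquinone, and those taken off by the hydroxyacyl-CoA dehydrogenases reach it as NADH through complex I. Peroxisomes run a similar cycle on very long and branched chains, with an oxidase in place of the dehydrogenase. Ketone bodies are made from acetyl-CoA in the liver and are burned in other tissues through Bdh1, Oxct1 and Acat1, and the PPAR nuclear receptors induce many genes of these routes.

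The depth was 22375625 to 65299372 reads per control library and 55015760 to 60670901 reads per stiripentol library. Each group held 2 clusters of libraries, controls 1 to 3 and controls 4 and 5, and stiripentol 1 and 2 and stiripentol 3 to 5, with correlations across genes of 0.983 to 0.997 within a cluster and 0.920 to 0.939 between the clusters of a group. No source used here says what the clusters are, and controls 1 to 3 have another value for a gene without reads (-4.82) than the other 7 libraries (-4.74). Of the 12 neuroendocrine markers of small cell lung cancer looked for, 9 were in the table and 7 of these, Insm1 and Syp among them, were below 1 CPM in every library, whereas Ncam1 ranged from 92.8 to 154 CPM. The sum of these markers, mostly Ncam1, was 93.5 to 120 CPM in control and 127 to 157 CPM in stiripentol libraries. These markers thus do not mark the cells as neuroendocrine, and the label rests on the origin of the line. The summed fibroblast markers were 404 to 696 CPM in control and 152 to 185 CPM in stiripentol libraries, with 2 of 8 (Lum and Fap) below 1 CPM throughout. This sum hides opposite differences between the control clusters. Col3a1 averaged 309 CPM in controls 1 to 3 and 29.5 CPM in controls 4 and 5, and Col1a1 53.0 and 272 CPM. Col1a1 alone of the fibroblast markers above 1 CPM was higher in controls 4 and 5. The 4 epithelial markers, of which Epcam was below 1 CPM throughout, summed to 2280 to 2600 CPM in control and 1540 to 2140 CPM in stiripentol libraries. That sum came almost wholly from Krt8 and Krt18, with Cdh1 at 0.181 to 1.09 CPM. The macrophage and leukocyte list summed to 4.27 to 18.4 CPM in control and 55.3 to 103 CPM in stiripentol libraries, mostly from Cd68, with Ptprc and Csf1r below 1 CPM throughout. Every endothelial, alveolar, adipocyte and hepatocyte marker in the table was below 1 CPM. The part of these shifts in the results below was not tested, and in bulk RNA fewer cells of a type cannot be told apart from less RNA per cell.

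With stiripentol, 7 of the 38 tested genes were lower and 2 were higher (limma, Benjamini-Hochberg adjusted p under 0.05 over all 12306 genes, termed called below). Over all genes tested, 14.1% were called lower and 13.6% higher, so 7 of 38 lower genes is near the background and 2 of 38 higher genes is below it. The lower genes were Cpt1c, Acadm, Acads, Ivd, Acox3, Hadhb and Acat1, and the higher genes were Acsl1 and Hadh. With control 3 left out, the number of lower members was 4, where 10.4% of all genes were called lower. The median log2 change was -0.16 over the 38 genes and -0.06 over all genes tested. A description without a model gave a similar picture. All 5 stiripentol values lay below all 5 control values in 7 members, where 14.3% of all genes did so, and above them in 2 members, where 13.0% did so. The first 7 were Acadm, Acads, Ivd, Acox3, Hadhb, Acat1 and Hsd17b4.

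By compartment, 5 of the 23 tested mitochondrial genes were lower and 1 was higher, with a median log2 change of -0.15. Of the 5 tested peroxisomal genes, 1 was lower and none was higher, with limma or with voom (2 lower and 0 higher at an unadjusted p under 0.05), and the median was -0.17. Crot, Acad11, Acaa1a and Hsd17b4 were the uncalled peroxisomal genes, with adjusted p from 0.0625 to 0.681. Eci2 and Ech1, which serve both compartments, had log2 changes of 0.34 and 0.37 and were not called. Of the 8 tested genes counted apart, 1 was lower (Cpt1c) and 1 was higher (Acsl1). By role, 4 of the 11 tested acyl-CoA dehydrogenases and oxidase were lower, where 14.1% of all genes were called lower. In this class 10 of 11 log2 changes were below 0, where 53.6% of all genes were, and the median was -0.29. No difference between compartments or roles was tested.

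**Figure D1:**
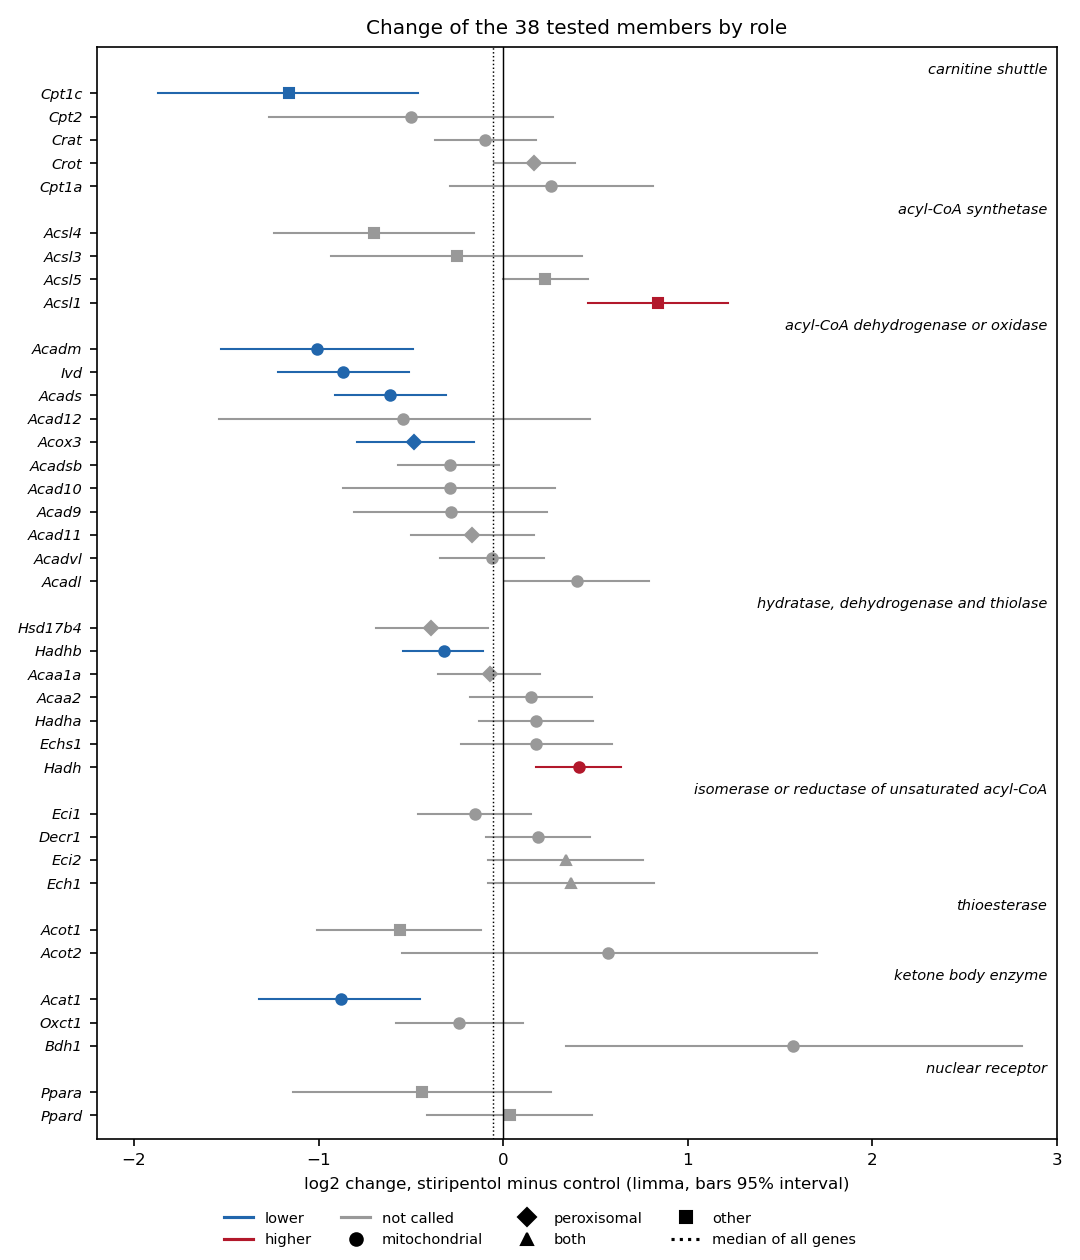
Log2 change of each of the 38 tested members (stiripentol minus control, horizontal axis) with its 95% interval from limma, ordered by role, with called members in blue (lower) or red (higher), the compartment given by the marker shape and the dotted line at the median of all genes. The acyl-CoA dehydrogenases and oxidase lie mostly left of 0, from -1.01 (Acadm) to 0.40 (Acadl), and the widest interval is that of Bdh1.

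The acyl-CoA dehydrogenases carry out the opening step of each β-oxidation cycle, and each prefers acyl chains of a certain length. Acadm, the medium-chain enzyme (chromosome 3, 153922357 to 153944632, minus strand, GRCm38), read 6.18, 6.34, 6.02, 6.93 and 7.07 log2 CPM in controls 1 to 5 and 5.09, 5.18, 5.77, 5.69 and 5.76 in stiripentol 1 to 5. Every stiripentol library was below every control library, controls 4 and 5 were the highest and stiripentol 1 and 2 the lowest. Acadm fell by 1.01 on the log2 scale (SE 0.23, limma adjusted p = 0.0109), from 6.51 ± 0.47 to 5.50 ± 0.33 (SD, n = 5 each).

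Acads, the short-chain enzyme (chromosome 5, 115110299 to 115119346), read 5.70, 5.70, 5.80, 6.30 and 5.96 in controls 1 to 5 and 5.15, 5.21, 5.41, 5.38 and 5.26 in stiripentol 1 to 5, again without overlap. It fell by 0.61 (SE 0.14, adjusted p = 0.0091). Ivd, isovaleryl-CoA dehydrogenase of leucine breakdown (chromosome 2, 118861954 to 118882909), read 6.32, 6.38, 6.59, 6.81 and 6.81 in control and 5.36, 5.48, 5.97, 5.85 and 5.92 in stiripentol libraries. Ivd fell by 0.87 (SE 0.16, adjusted p = 0.00355), the lowest adjusted p among the members. As with Acadm, controls 4 and 5 were the highest and stiripentol 1 and 2 the lowest libraries.

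Acox3, a peroxisomal oxidase of branched-chain acyl-CoA (chromosome 5, 35583040 to 35615352), read 4.51, 4.49, 4.84, 4.99 and 5.01 in control and 4.32, 4.28, 4.19, 4.27 and 4.39 in stiripentol libraries. The groups did not overlap, but stiripentol 5 at 4.39 lay near control 2 at 4.49. Acox3 fell by 0.48 (SE 0.14, adjusted p = 0.031), a call that was lost in 11 of 29 alternatives. It was lost without control 3, 4 or 5 (adjusted p = 0.0673, 0.0612 and 0.062) and without stiripentol 2, 3 or 4 (0.0613, 0.0634 and 0.0583).

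The remaining dehydrogenases were not called, and 2 of them, Acadl and Acadsb, had an unadjusted p under 0.05. Acadvl, the very-long-chain enzyme, had a log2 change of -0.06 (adjusted p = 0.746). For Acadl, the long-chain enzyme, it was 0.40 (adjusted p = 0.112), the single value above 0 in this class. Acadsb, which acts on short branched chains, had -0.29 (adjusted p = 0.0979). Acad9, which is also an assembly factor of complex I, had -0.28 (adjusted p = 0.386), at 4.70 and 4.69 in stiripentol 1 and 2 and 5.23 to 5.81 in the other 8 libraries, and 6.63% of its 100-base transcript windows also occur in another gene, mostly Gm43079. Acad10, Acad11 and Acad12 had -0.29, -0.17 and -0.54 with adjusted p of 0.391 to 0.435. Reads of the neighbors Acad10 and Acad12 can be confused, since 7.45% and 7.12% of their windows also occur in another gene, mostly in each other.

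The difference between Acadl and Acadm within a library, a pair picked after its values were seen, was 0.81 to 1.66 in control and 2.01 to 3.26 in stiripentol libraries. The groups did not overlap in this difference, but they did not overlap in Acadm alone either, and Acadl was not called. The difference thus only describes these libraries.

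**Figure D2:**
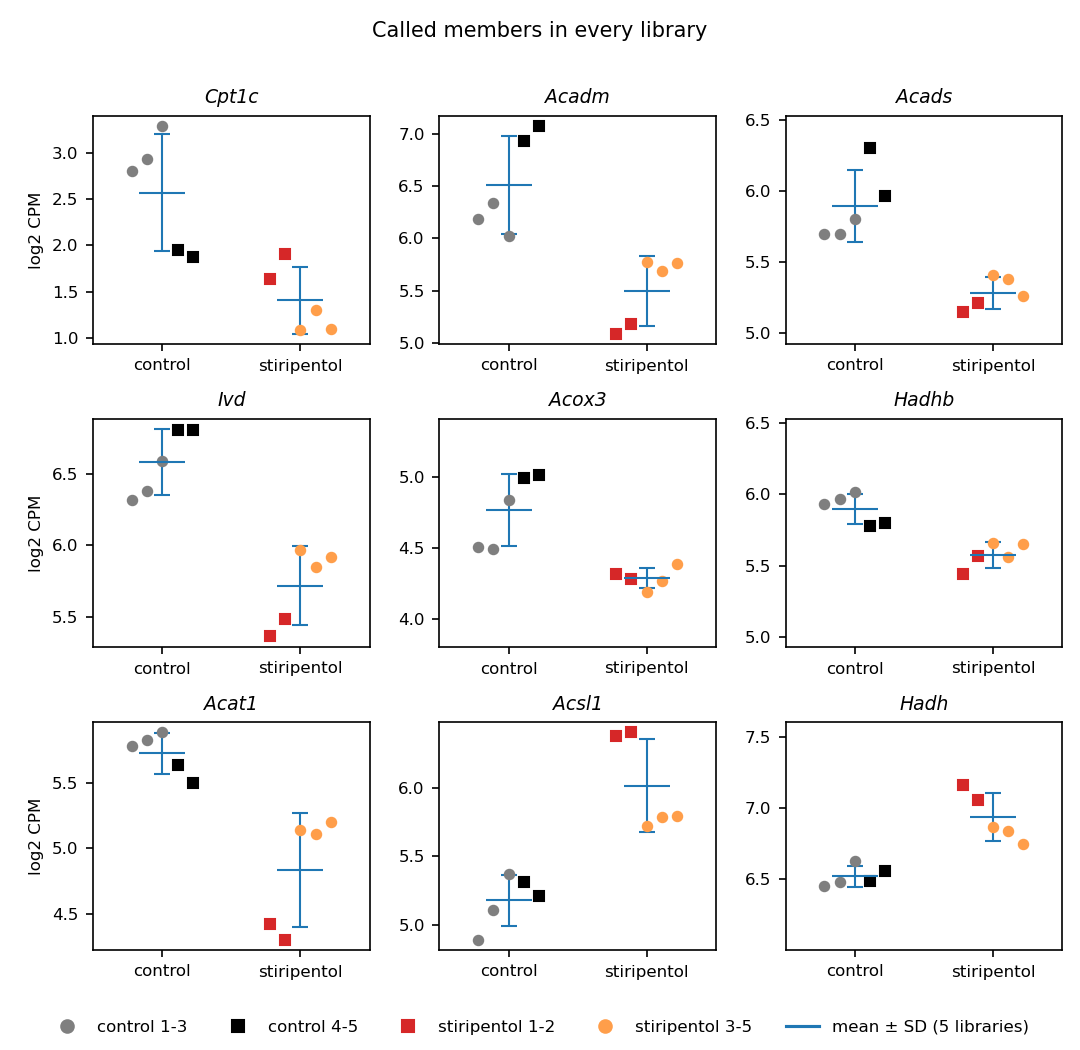
Log2 CPM of the 9 called members in each of the 10 libraries (points, with shape and color by cluster) and the mean ± SD of each group. In Acadm, Acads, Ivd, Acox3, Hadhb and Acat1 all stiripentol points lie below all control points, in Acsl1 and Hadh all lie above, and in Cpt1c stiripentol 2 at 1.91 lies between controls 5 and 4 at 1.87 and 1.95.

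Entry of long-chain acyl groups into mitochondria is set by carnitine palmitoyltransferase 1, of which Cpt1a is the liver-type isoform on the outer membrane and Cpt1c a brain-enriched isoform in the endoplasmic reticulum with little transferase activity. Cpt1c (chromosome 7, 44959372 to 44974851) read 2.81, 2.94, 3.29, 1.95 and 1.87 in controls 1 to 5 and 1.64, 1.91, 1.08, 1.30 and 1.10 in stiripentol 1 to 5, from 81 to 621 reads per library. Controls 1 to 3 stood apart above all others, and stiripentol 2 lay between controls 4 and 5. Cpt1c fell by 1.16 (SE 0.32, limma adjusted p = 0.0216), the largest fall among the called members. The call was lost when any of controls 1 to 3 was left out, with adjusted p of 0.0533, 0.0556 and 0.0519, and against controls 4 and 5 alone the log2 change was -0.50 (adjusted p = 0.275).

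Cpt1a read 6.76, 6.90, 7.24, 7.95 and 7.97 in controls 1 to 5 and 7.83, 7.95, 7.41, 7.44 and 7.50 in stiripentol 1 to 5. Its log2 change was 0.26 (SE 0.25, 95% interval -0.29 to 0.81, adjusted p = 0.446). The lowest and the highest values were both controls. Cpt2, the inner membrane partner that turns acylcarnitine back into acyl-CoA, read 4.55, 4.67, 4.65, 4.96 and 4.99 in control and 3.20, 3.50, 4.91, 4.83 and 4.88 in stiripentol libraries. Only stiripentol 1 and 2 stood below the controls, and the log2 change of -0.50 (95% interval -1.27 to 0.27) was not called (adjusted p = 0.293).

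Crat and Crot, the carnitine transferases for acetyl groups and for medium chains leaving peroxisomes, had log2 changes of -0.10 and 0.17 and were not called (adjusted p = 0.573 and 0.221). Cpt1b, the muscle isoform, was under the filter, with 9 to 85 reads per library. It read -0.46, -0.61, -1.12, -0.62 and -0.50 in controls 1 to 5 and -1.81, -2.38, 0.01, 0.54 and 0.52 in stiripentol 1 to 5, so that stiripentol 1 and 2 were below and stiripentol 3 to 5 above every control. The means differed by 0.04 (two-sided exact permutation p = 1.0 over 252 arrangements), and 75.6% of its transcript windows are shared with Gm44502, so its reads are uncertain.

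Acsl1 joins long-chain fatty acids to coenzyme A and is abundant in oxidative and fat-storing tissues. It read 4.89, 5.11, 5.37, 5.31 and 5.21 in controls 1 to 5 and 6.38, 6.41, 5.72, 5.79 and 5.80 in stiripentol 1 to 5. No library overlapped, and stiripentol 1 and 2 were the highest. Acsl1 (chromosome 8, 46471037 to 46536051) rose by 0.84 (SE 0.17, adjusted p = 0.00603), and the call was lost against controls 4 and 5 alone (0.76, adjusted p = 0.0639).

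The other synthetases were not called, and Acsl4 alone had an unadjusted p under 0.05. Acsl4, which prefers arachidonate, had a log2 change of -0.70 (adjusted p = 0.0559). It was 7.83 to 8.04 in controls 1 to 3 and 6.51 to 7.08 in the other 7 libraries, and without control 4 or control 5 it was called (adjusted p = 0.0148 and 0.0415). Against controls 4 and 5 alone its log2 change was -0.11 (adjusted p = 0.715). Acsl3, a synthetase of the endoplasmic reticulum and lipid droplets, had -0.25, with 5.73 to 5.76 in stiripentol 3 to 5 and 6.98 and 7.07 in stiripentol 1 and 2. Acsl5, found on mitochondria and the endoplasmic reticulum, had 0.23 (adjusted p = 0.126). Acsl6, the neuronal form, was under the filter with 5 reads in all controls and 3 in all stiripentol libraries.

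After the dehydrogenase step, the mitochondrial trifunctional protein, an assembly of Hadha and Hadhb, takes long chains through the rest of the cycle, while Echs1, Hadh and Acaa2 serve shorter chains. Hadhb, the thiolase subunit (chromosome 5, 30155248 to 30184593, plus strand), read 5.93, 5.97, 6.02, 5.78 and 5.80 in controls 1 to 5 and 5.44, 5.57, 5.66, 5.56 and 5.65 in stiripentol 1 to 5. It fell by 0.32 (SE 0.10, adjusted p = 0.0329) without overlap, a call that was lost in 12 of 29 alternatives. It was lost without control 1, 2 or 3 (adjusted p = 0.0709, 0.0769 and 0.0764), without stiripentol 1, 2 or 4 (0.0621, 0.0657 and 0.064), and under TMM scaling (0.0731). Of its transcript windows, 14.8% are identical to Gm13910, which had 821 reads in all controls and 750 in all stiripentol libraries, beside 16463 and 13899 for Hadhb.

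Hadha, the subunit with hydratase and hydroxyacyl-CoA dehydrogenase activity (chromosome 5, 30118304 to 30155162, minus strand), read 6.95, 7.04, 7.08, 6.66 and 6.65 in control and 7.35, 7.25, 6.86, 6.88 and 6.94 in stiripentol libraries. The groups overlapped and the log2 change of 0.18 (95% interval -0.13 to 0.49) was not called (adjusted p = 0.341). The difference of Hadha from Hadhb within a library was 0.97 ± 0.10 in control and 1.48 ± 0.30 in stiripentol libraries (SD, n = 5), with no overlap between 0.85 to 1.07 and 1.20 to 1.90. This pair was also picked after its values were seen. Hadhb alone did not overlap between the groups either, and Hadha was not called, so this difference too only describes these libraries.

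Hadha and Hadhb lie head to head, with RefSeq start sites 273 bases apart, so that a single stretch lies upstream of both. The 85 bases between the ends of the 2 annotated genes are shown because the members on either side of it differed in their calls. The sequence is from RefSeq (GRCm38.p6), on the plus strand as read toward Hadhb, with the Sp1 box GGGCGG, searched on both strands, in capitals.
chr5:30155163-30155247: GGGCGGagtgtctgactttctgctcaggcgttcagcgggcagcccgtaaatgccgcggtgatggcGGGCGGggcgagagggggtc
The letters occur 2 times in this stretch. The Sp1 box was present in 26 of the 34 members with a RefSeq promoter entry (76.5%) and in 38.2% of all genes. The search covered 300 bases, from 250 before to 50 after the start. All genes here are the 27025 with a promoter entry, expressed in these cells or not, whereas most members had a mean log2 CPM above 0. These shares thus compare unlike sets, and whether the members differ from other expressed genes was not tested. The same limit applies to the shares of other motifs below.

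Hadh, which oxidises medium and short hydroxyacyl-CoA with NAD (chromosome 3, 131233419 to 131272101), read 6.45, 6.48, 6.63, 6.49 and 6.56 in controls 1 to 5 and 7.16, 7.06, 6.87, 6.84 and 6.75 in stiripentol 1 to 5. Hadh rose by 0.41 (SE 0.10, adjusted p = 0.0149). Its control SD of 0.07 was the smallest of the tested members, and every stiripentol library lay above every control. The call was lost against controls 4 and 5 alone (0.41, adjusted p = 0.074).

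Of the other enzymes of these steps, none was called with limma or voom, and Hsd17b4 alone had an unadjusted p under 0.05. Echs1, the short-chain hydratase, had a log2 change of 0.18, with stiripentol 1 and 2 at 7.21 and 7.08 and the other 8 libraries at 6.29 to 6.62. Acaa2, the mitochondrial thiolase, had 0.15, and Acaa1a, the peroxisomal thiolase, -0.07 (7.21% of its windows are shared with Acaa1b). Hsd17b4, the peroxisomal bifunctional protein for branched and very long chains, had -0.39 (adjusted p = 0.0625). Its values were 6.07 to 6.32 in control and 5.45 to 6.03 in stiripentol libraries, without overlap, and it was called under 3 other scalings (adjusted p = 0.0335, 0.0347 and 0.0333). Ehhadh, the other peroxisomal bifunctional protein, was under the filter, with 4 reads in all controls and 1 in all stiripentol libraries. The enzymes that prepare unsaturated chains, Eci1, Eci2, Decr1 and Ech1, had log2 changes of -0.15, 0.34, 0.19 and 0.37 and adjusted p of 0.19 to 0.417.

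The thioesterases Acot1 and Acot2, which split acyl-CoA in the cytosol and in mitochondria, are neighbors on chromosome 12, with 12.4% and 17.1% of their windows also found in another gene, mostly each other, so reads may have been divided between them. Acot1 read 4.04, 4.00, 4.01, 3.48 and 3.23 in controls 1 to 5 and 3.40, 3.37, 3.10, 2.96 and 3.12 in stiripentol 1 to 5, with a log2 change of -0.56 (adjusted p = 0.0593). Without control 5 it was called (adjusted p = 0.0232), and against controls 4 and 5 alone the change was -0.16 (adjusted p = 0.58). Acot2 read 4.03, 4.32, 5.00, 3.29 and 3.06 in controls and 3.20, 3.59, 5.22, 5.31 and 5.24 in stiripentol libraries, with a log2 change of 0.57 (95% interval -0.55 to 1.70, adjusted p = 0.414). Acot2 was high in stiripentol 3 to 5 and low in stiripentol 1 and 2 and in controls 4 and 5.

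Among the ketone body enzymes, Acat1, the mitochondrial acetoacetyl-CoA thiolase that also ends isoleucine breakdown (chromosome 9, 53580522 to 53610382), read 5.78, 5.82, 5.88, 5.63 and 5.50 in controls 1 to 5 and 4.43, 4.31, 5.14, 5.11 and 5.20 in stiripentol 1 to 5. Every stiripentol library was below every control, and stiripentol 1 and 2 were the lowest. Acat1 fell by 0.88 (SE 0.20, adjusted p = 0.0091), and against controls 4 and 5 alone the log2 change of -0.73 was not called (adjusted p = 0.129).

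Oxct1, the transferase that commits acetoacetate to oxidation, read 8.77, 8.68, 8.84, 8.45 and 8.45 in control and 8.77, 8.69, 8.29, 8.09 and 8.17 in stiripentol libraries. Stiripentol 1 and 2 lay within the controls, and the log2 change of -0.24 was not called (adjusted p = 0.267).

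Bdh1, which interconverts 3-hydroxybutyrate and acetoacetate (chromosome 16, 31422280 to 31458901), read -0.43, -0.24, -0.29, 2.20 and 2.20 in controls 1 to 5 and 2.07, 2.33, 2.49, 2.13 and 2.29 in stiripentol 1 to 5. Controls 1 to 3 held 46 to 50 reads each, and controls 4 and 5 held 290 and 102. Controls 4 and 5 thus lay among the stiripentol libraries, and controls 1 to 3 stood far below all others. The log2 change of 1.57 had a 95% interval of 0.34 to 2.81 and was not called (SE 0.56, adjusted p = 0.0584). Without control 4 or control 5 it was called (adjusted p = 0.0213 and 0.0218), and TMM scaling gave 0.047. Against controls 4 and 5 alone its log2 change was 0.06 (adjusted p = 0.849).

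**Figure D3:**
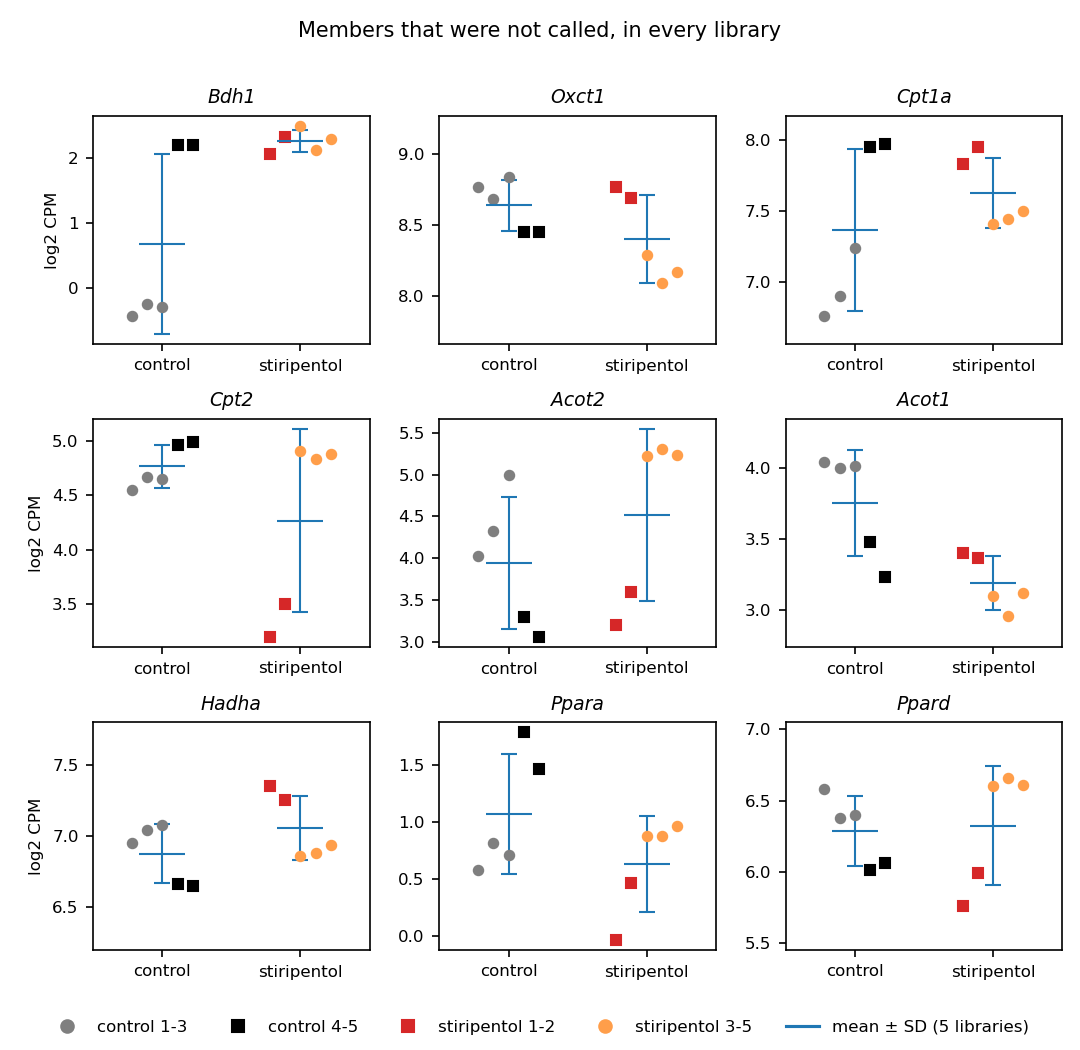
Log2 CPM of 9 members that were not called, in each of the 10 libraries (points, with shape and color by cluster), with the mean ± SD of each group. The clusters of a group lie apart in most panels, as for Bdh1 in control (near -0.3 and at 2.20) and Cpt2 in stiripentol libraries (3.20 and 3.50 against 4.83 to 4.91).

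Ppara, the receptor that drives oxidation and ketogenesis genes in liver, read 0.58, 0.82, 0.71, 1.79 and 1.47 in controls 1 to 5 and -0.03, 0.47, 0.88, 0.88 and 0.97 in stiripentol 1 to 5, from 57 to 218 reads per library. Its log2 change was -0.44 (95% interval -1.14 to 0.26, adjusted p = 0.311). Ppard, the widely expressed receptor of this family, read 6.58, 6.38, 6.40, 6.01 and 6.06 in control and 5.76, 5.99, 6.60, 6.66 and 6.61 in stiripentol libraries, with a log2 change of 0.04 (95% interval -0.41 to 0.48, adjusted p = 0.908). The groups overlapped for both receptors.

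The PPAR response element in its strict form, 2 copies of AGGTCA with 1 base between them, was not found on either strand in any of the 34 member promoters, where 0.0481% of all genes held it. With only 13 of 27025 genes holding it, none was to be expected among 34, so its absence says nothing about the members. A single AGGTCA, which is part of that element, was present in 6 of 34 members (17.6%: Cpt1a, Cpt1c, Acsl6, Acadvl, Acadm and Echs1) and in 18.1% of genes. CCAAT was present in 16 (47.1%) and in 41.1% of genes. The upstream bases of Acadm and Ivd are shown as examples, from RefSeq (GRCm38.p6) and ending before the annotated gene. Both kept their calls in 28 of 29 alternatives and lost them with 1 mean per cluster (limma adjusted p = 0.489 and 0.508). Capitals mark AGGTCA in Acadm and CCAAT in Ivd, both lying on the opposite strand and so printed as their reverse complement.
Acadm, chr3:153944644-153944893, minus strand: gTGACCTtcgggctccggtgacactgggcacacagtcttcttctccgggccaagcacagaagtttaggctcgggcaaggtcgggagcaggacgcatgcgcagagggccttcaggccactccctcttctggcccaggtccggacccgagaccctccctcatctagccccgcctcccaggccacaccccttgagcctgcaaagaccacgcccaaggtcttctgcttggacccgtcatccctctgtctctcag
Ivd, chr2:118861744-118861953, plus strand: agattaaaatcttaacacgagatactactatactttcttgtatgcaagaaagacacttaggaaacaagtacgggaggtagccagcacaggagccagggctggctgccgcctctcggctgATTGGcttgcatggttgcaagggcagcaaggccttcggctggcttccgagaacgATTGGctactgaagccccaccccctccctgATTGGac
Acadm held 1 match in these 250 bases, and Ivd held 3 in its 210 bases. These are matches of letters only.

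The spread between the clusters was as large as the treatment differences in many members. The median absolute gap between controls 4 and 5 and controls 1 to 3 was 0.39 over the 38 members (0.40 over all genes tested), that between the stiripentol clusters was 0.47 (0.54), and the median absolute treatment change was 0.33 (0.41). The gap within controls exceeded the treatment change in 23 of 38 members (60.5%), against 49.4% of all genes tested. Controls 4 and 5 were above controls 1 to 3 in 24 of 38 members (63.2%), against 51.2% of all genes.

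When each stiripentol cluster was set against each control cluster, 9 members were lower and 3 were higher in all 4 comparisons, where 22.5% and 19.8% of all genes tested were, and 26 had mixed signs. The count of lower members is thus near the background and that of higher members below it. The 9 were Cpt1c, Acadm, Acads, Acadsb, Ivd, Acox3, Hadhb, Hsd17b4 and Acat1, and the 3 were Acsl1, Acsl5 and Hadh. The size varied even in these. Acadm differed by -1.87 between stiripentol 1 and 2 and controls 4 and 5 and by -0.44 between stiripentol 3 to 5 and controls 1 to 3, and Cpt1c by -0.13 and -1.85 in the same comparisons.

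**Figure D4:**
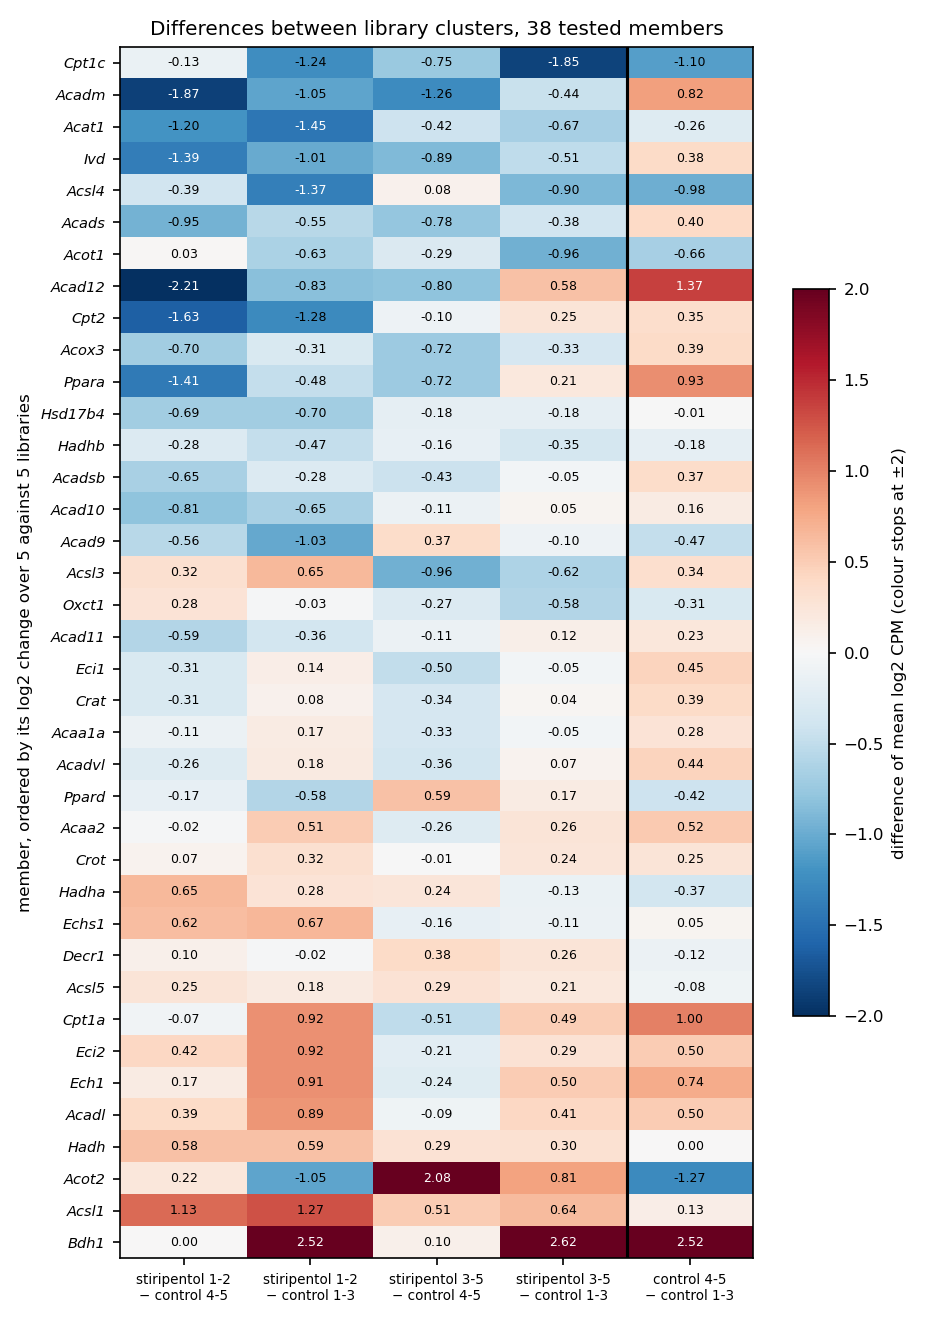
Differences of mean log2 CPM between clusters of libraries for the 38 tested members (rows, ordered by log2 change over all 10 libraries), with stiripentol minus control in the left 4 columns and controls 4 and 5 minus controls 1 to 3 on the right. Called members keep 1 sign over the left 4 columns, while Bdh1, Acot2, Cpt1a and Acad12 change with the control cluster used.

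A treatment effect that differed between the library sets was called by limma in 25 of 38 members, with controls 4 and 5 joined to stiripentol 1 and 2, and this held for 63.3% of all genes tested. Joined the other way, it was again 25 members, with 71.9% of all genes, and 14 members were called both ways. The clusters were defined from these same values, so the counts describe the libraries, and the share of members is near that of all genes. In the first joining, 13 members had effects of opposite sign in the 2 sets together with a call. Cpt2 had -1.63 and 0.25, Oxct1 0.28 and -0.58, Ppara -1.41 and 0.21, and Acad12 -2.21 and 0.58.

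Among the controls, 4 and 5 share the zero-read value of all stiripentol libraries. Against these 2 controls alone, 7 members were lower, where 9.87% of all genes were lower, and none was higher (limma), where 10.1% of all genes were. At an unadjusted p under 0.05, 11 members were lower and 4 higher, the same counts as over all 10 libraries. The share of all genes at that threshold is not given here. The 7 were Acadm (log2 change -1.50, adjusted p = 0.00568), Acads (-0.85, 0.00731), Ivd (-1.09, 0.0102), Acox3 (-0.71, 0.00807), Acadsb (-0.52, 0.0255), Crat (-0.33, 0.0454) and Acadvl (-0.32, 0.0483). Of these, 6 belong to the acyl-CoA dehydrogenases and oxidase. All 7 were higher in controls 4 and 5 than in controls 1 to 3, by 0.37 (Acadsb) to 0.82 (Acadm). Acadm, Acads, Ivd and Acox3 were also called over all 10 libraries. That fit shares the stiripentol libraries and controls 4 and 5 with this one, so the 2 are not independent.

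The genes that supply and surround the members were read from 4 further lists, with values from the same fit and beside the same shares of all genes, 14.1% lower and 13.6% higher. Of the other mitochondrial β-oxidation and carnitine genes, 15 of 19 were tested, 1 was lower and none was higher by limma, with a median log2 change of 0.10 (1 was higher at an unadjusted p under 0.05, and 1 was called higher by voom). The lower gene was Slc25a20, the carrier that exchanges acylcarnitine for carnitine across the inner membrane. It read 4.76 to 5.16 in control and 4.25 to 4.48 in stiripentol libraries and fell by 0.54 (SE 0.12, adjusted p = 0.00965). In the peroxisomal list of 18 genes, none of the 15 tested rows was lower by limma or voom (1 at an unadjusted p under 0.05) and 1 was higher (median 0.11). This was Acot8, a peroxisomal thioesterase, which read 3.21 to 3.71 in control and 3.77 to 4.09 in stiripentol libraries and rose by 0.52 (SE 0.16, adjusted p = 0.0331). The call was lost without any of controls 1 to 3 (adjusted p = 0.0752 to 0.0789) or stiripentol 3 to 5 (0.0553 to 0.0716). Against controls 4 and 5 alone, 4 genes of this list were lower and none was higher (limma; 6 lower and 0 higher at an unadjusted p under 0.05), where 9.87% and 10.1% of all genes were. Among them, and named after their values were seen, were Hacl1 (-1.02, adjusted p = 0.00412), Decr2 (-0.39, 0.0418) and Scp2 (-0.38, 0.0212). Over all 10 libraries their log2 changes were -0.26, 0.13 and -0.16, and none was called (limma adjusted p = 0.544, 0.661 and 0.297). Hacl1 and Decr2 averaged 3.27 and 4.81 in controls 1 to 3, below both stiripentol clusters (3.42 and 3.60, 5.23 and 5.34). Another Hacl1 row, under the filter, had 0 reads in every control and 0 to 41 in stiripentol libraries.

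Of 9 other genes of ketone body synthesis and use, 5 were tested, with a median of 0.33. In these, 1 was lower and none was higher by limma or voom (1 at an unadjusted p under 0.05). By limma, 14.1% of all genes were lower and 13.6% higher. Aacs, which activates acetoacetate in the cytosol for lipid synthesis, read 6.45, 6.23, 5.60, 5.41 and 5.49 in controls 1 to 5 and 3.82, 4.25, 4.67, 4.73 and 4.74 in stiripentol 1 to 5. Aacs fell by 1.39 (SE 0.25, limma adjusted p = 0.00336), without overlap and by more than any called member. Against controls 4 and 5 alone, 1 gene of this list was lower and 1 higher by limma, where 9.87% and 10.1% of all genes were. The lower was Aacs (-1.01, adjusted p = 0.0424). The higher, named after its values were seen, was Slc16a1 (0.72, 0.0159), with 0.33 over all 10 libraries (adjusted p = 0.173).

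Of 29 PPAR partners and targets, 19 were tested, with a median of 0.17. In these, 1 was lower and 5 were higher, where 14.1% and 13.6% of all genes were. Pparg, the adipogenic receptor of the family, read 1.15, 0.83, 2.46, 2.70 and 2.73 in controls 1 to 5 and 3.84, 3.76, 3.19, 3.07 and 3.16 in stiripentol 1 to 5. Pparg rose by 1.43 (SE 0.40, adjusted p = 0.0244) without overlap, with controls 1 and 2 far below the other controls. The call was lost without control 1 (adjusted p = 0.0578), stiripentol 1 (0.0539) or stiripentol 2 (0.0581). Pnpla2, the triglyceride lipase, rose by 0.90 (adjusted p = 0.036), with controls 4 and 5 at 7.10 and 7.09 and stiripentol 3 to 5 at 7.08 to 7.17. Sirt3, a mitochondrial deacetylase, rose by 0.72 (adjusted p = 0.0256), and Plin2, a lipid droplet coat protein, rose by 0.69 (adjusted p = 0.0121), both without overlap.

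Of these 4 genes Plin2 kept its call when each single library was left out, as did Ncor1, a corepressor of nuclear receptors and the remaining higher gene of the list, named after its values were seen (0.51, adjusted p = 0.0137). The calls of Pnpla2 and Sirt3 were lost without any of controls 1 to 3 or stiripentol 1 or 2 (adjusted p = 0.0732 to 0.0861 and 0.0519 to 0.0622). Ucp2, a mitochondrial carrier, fell by 0.40 (adjusted p = 0.0389), with overlap between controls 4 and 5 (7.58 and 7.70) and stiripentol 3 to 5 (7.56 to 7.62), and its call was lost without controls 1, 2 or 3 or stiripentol 1, 2, 3 or 5 (adjusted p = 0.0507 to 0.0926). Against controls 4 and 5 alone, none of the PPAR list was higher by limma (3 at an unadjusted p under 0.05), where 10.1% of all genes were. In the same fit 1 was lower (3 at an unadjusted p under 0.05), where 9.87% of all genes were. This was Esrra, named after its values were seen (-0.61, limma adjusted p = 0.026). Over all 10 libraries its log2 change was -0.02 (adjusted p = 0.964). Pdk4, a PPAR target that restrains pyruvate oxidation, had no read in any library, and Cd36, a fatty acid transporter, had 0 to 33 reads. Fgf21, a secreted PPAR target, was under the filter with 9 to 36 reads in control and 91 to 261 in stiripentol libraries. These 3 were named after their values were seen.

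**Figure D5:**
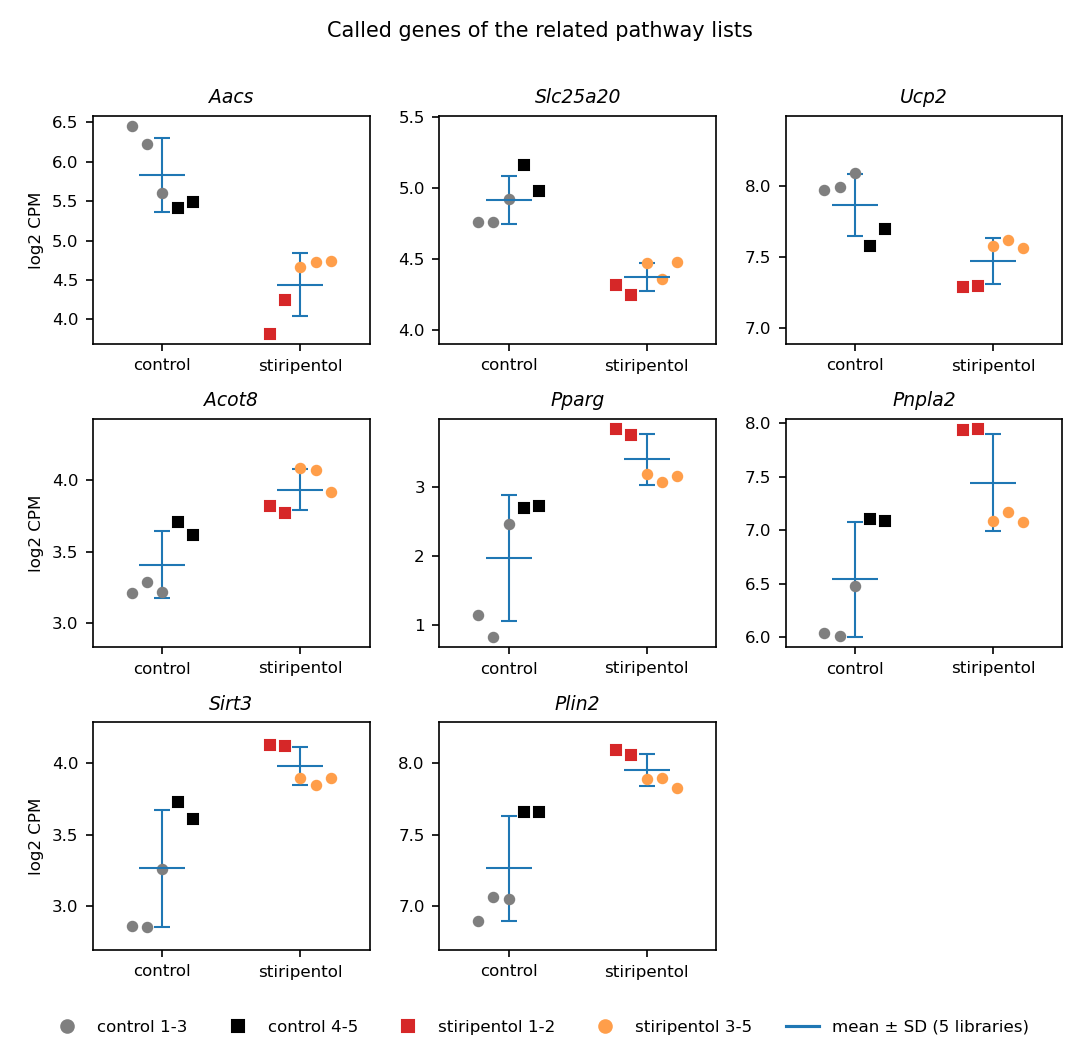
Log2 CPM of 8 called genes of the related pathway lists in each of the 10 libraries (points, with shape and color by cluster), with the mean ± SD of each group. Aacs and Slc25a20 lie lower and Acot8, Pparg, Sirt3 and Plin2 higher in all stiripentol libraries, while Ucp2 and Pnpla2 overlap between controls 4 and 5 and stiripentol 3 to 5.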

How the data were processed

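RNA sequencing was performed on mSCLC-2405 cells, 5 control and 5 stiripentol libraries. The deposited values are log2 CPM that the authors made with GENAVi, per their methods, for 26335 rows and 10 libraries. The build named in the submitters' processing notes is mm10, and the aligner, annotation and strand setting are not given in the sources used here. The labels name TruSeq total RNA libraries and the methods Lexogen QuantSeq 3′ mRNA libraries, so no gene's level was read against that of another, and a difference between a pair of genes was compared only between groups. The authors also deposited their own comparison, which was not used: group means on the log2 scale, p-values, q-values and their −log10, and a score that is the ratio or difference of the log2 group means. Whole reads could be recovered from the log2 CPM with a tolerance of 0.05 and served for depths, voom and other scalings. Depth covers counting error only.

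The groups were compared on the log2 CPM as deposited with limma 3.58.1 in R 4.3.3 (lmFit, eBayes with a mean-variance trend), over the 12306 genes with mean log2 CPM above 0, with Benjamini-Hochberg adjustment and no covariate. Calls were made at adjusted p under 0.05. For members under that filter, exact two-sided permutation tests were run in scipy 1.17.1. Members and lists were chosen with earlier results of these data known. The members that were called, the carnitine palmitoyltransferases, the ketone body enzymes and the PPAR genes were given in every library, and called genes of the pathway lists were named up to 4 per list and direction. Positions, transcript windows of 100 bases and start sites came from GENCODE M21 and RefSeq on GRCm38. Symbols of Acsm5, Mmut, Cyp4a10 and Cyp4a14 were not found in the table and are not analysed here. Alternatives were leaving out each library, replicate blocks, library sets, filters, pseudocounts, scalings and variance models, and, chosen after the data were seen, stiripentol 3 to 5 against all controls. Some genes of the lists are not reported here by name.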

Additional observations from a re-analysis of the deposited data

Results flagged for a closer look

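Among 78 groups of 5 values tested for a value far from the others (Dixon's limit of 0.71), 2 were marked, where chance gives about 1 in 20 or 3.9 groups. Acsl3 was 5.92 log2 CPM in control 3 and 6.57 to 6.76 in the other controls, near the 5.73 to 5.76 of stiripentol 3 to 5. The total of control 5 was 22375625 reads, where the other controls had 57991647 to 65299372. The treatment effect differed between the library sets in 25 of the 38 tested members (limma interaction, adjusted p under 0.05), a count that lies beside 63.3% of all genes and rests on clusters defined from these values.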

How the results depend on the processing

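Over 29 alternatives each, no called member reversed its direction. Acadm, Acads and Ivd lost their calls in 1 alternative, Acsl1 and Acat1 in 2, Hadh in 3, Cpt1c in 8, Acox3 in 11 and Hadhb in 12. With 1 mean per cluster (2 against 2), 0 members were called lower and 0 higher (limma; 2 lower and 0 higher at an unadjusted p under 0.05), and no gene of the whole table was called. Leaving out 1 library at a time gave 4 to 8 members lower and 2 to 3 higher, where 9.52% to 14.6% and 9.90% to 13.9% of all genes were. The count of 4 was without control 3, where 10.4% of all genes were lower. Such fits gave 7 to 9 members lower and 2 to 2 higher without overlap. They gave 19 to 30 members with an effect that differed between library sets. Shares of all genes are not given here for the overlap and library set counts. In the pathway lists, leaving out 1 library gave 0 to 1 higher mitochondrial genes, 0 to 2 higher peroxisomal genes and 0 to 1 higher ketone body genes. It gave 0 to 2 lower and 2 to 5 higher PPAR genes. With the library set as a covariate, 11 members were lower and 7 higher (27.1% and 23.6% of all genes). Controls 4 and 5 with stiripentol 1 and 2 alone gave 18 lower and 9 higher (46.5% and 25.7% of all genes), controls 1 to 3 with stiripentol 3 to 5 alone gave 11 lower and 13 higher (27.0% and 37.7%), and stiripentol against controls 4 and 5 alone gave 0 higher. Stiripentol 3 to 5 against all controls, chosen after the data were seen, gave 4 higher (17.0%). PPAR genes numbered 0 lower without a filter and 8 higher under quantile normalization, which moved the median of all genes from -0.056 to 0.046. The cause of these changes was not tested.

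Same-numbered libraries did not deviate together in the numbering of the sample titles (correlations -0.24 to 0.061). In that of the study's own table the correlations were 0.219, 0.188, 0.224, 0.202 and 0.084, all above 0. They were not all above 0.1, so the numbers were not taken as pairs. That numbering puts controls 4 and 5 beside stiripentol 1 and 2, as in the first joining of the library sets. With the title number as a replicate block, 1 member was higher (8.29% of all genes), Hadh, Hadhb and Acox3 lost their calls (adjusted p = 0.0606, 0.0883 and 0.0745), and the PPAR list had 0 lower and 2 higher genes. With the table's number as a block, 5 members were higher (16.7%) and Cpt1c lost its call (0.0564). The planned edgeR and DESeq2 fits were not run, because the deposited unit is log2 CPM. Cpt1b, Acsl6 and Ehhadh were under the filter and have no test across genes.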
